A study of Mus musculus with 6 samples.

Results

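The genes described here are the axon guidance ligands and receptors of the mouse retina, compared by RNA-seq between wild-type C57Bl6/J mice (WT) and rd10 mice at postnatal day 30. They were taken from the count table by symbol, as every row that starts with Plxn or Unc5, or with Sema, Epha, Ephb, Efna, Efnb, Slit, Robo or Ntn and a digit. This gave 69 of 24062 genes. Of these, 3 are not guidance ligands or receptors: Unc50 encodes a Golgi protein that only shares letters with the netrin receptors, Unc5cl encodes a cytoplasmic signalling protein and had 0 counts in every library, and Plxna4os1 is an antisense transcript. The other 66 are semaphorins (20 genes), plexins (9), slits (3), Robo receptors (4), netrins (4), Unc5 receptors (4), ephrin-A and ephrin-B ligands (5 and 3) and EphA and EphB receptors (9 and 5). Of these 66, 61 passed the filter on low counts, and the remaining 5 (Efna4, Epha1, Ntn5, Plxnb3 and Robo3) had at most 16 counts in any library.

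Both groups are labelled with the strain C57Bl6/J, and each holds 3 libraries made from 2 frozen retinas apiece. The title of the study places its question in reactive Müller cells, which are retinal glia. The rd10 mouse carries a germline missense change in Pde6b, the gene of a rod phosphodiesterase subunit, in all of its cells, and its rods degenerate during the first postnatal weeks. Whether samples of a group stem from different animals is not in the labels, so the p-values reflect only how far these samples scatter, which may be technical. Library totals lay between 13573035 and 15818918 counts in WT and between 10923556 and 12171088 in rd10, and libraries carry the names of the count table, which for rd10 are Rd10-3, Rd10-4 and Rd10-5 and for wild type WT-1, WT-4 and WT-23. All 15 rod markers were detected and fell in rd10, all 14 microglial markers and 9 of 12 Müller glia markers rose, and none of 12 amacrine and 12 ganglion cell markers passed the test. Still, log2 fold changes were positive for all 12 amacrine and 9 of the 12 ganglion cell markers (46.2% of all genes tested). Their medians were 0.25 and 0.17. Of the bipolar cell markers 4 of 12 rose, of the cone markers 5 of 10 and of the astrocyte markers 3 of 5 tested, while 3 of 7 tested pigment epithelium markers and 1 of 8 horizontal cell markers fell. Summed microglial marker levels were 117 to 132 CPM (counts per TMM-scaled library size, the scale of all levels below) in WT and 359 to 461 CPM in rd10. For summed Müller marker levels the ranges were 8101 to 8885 and 12324 to 14533 CPM. Their part in the results below was not tested. In whole retinas, a change in the number of cells of a type and a change in RNA per cell cannot be told apart.

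Axon guidance cues are secreted or membrane-bound proteins that attract or repel growing neurites. Semaphorins signal through plexins, some of them with a neuropilin as coreceptor, slits through Robo receptors, netrins through Dcc, neogenin and the Unc5 receptors, and ephrins through Eph receptor tyrosine kinases. In the retina these systems steer ganglion cell axons towards the optic nerve head and the brain and sort neurites into the layers of the plexiform neuropil, and several of them also pattern blood vessels. In retinas that lose their rods, second-order neurons retract and sprout neurites.

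Few of these genes passed the adjusted test. Of the 61 tested, 2 rose in rd10 and none fell at an adjusted p under 0.05 (edgeR quasi-likelihood test with Benjamini-Hochberg adjustment over all 13905 genes tested). That is 3.28% of the 61, against 14.4% of all genes tested (7.12% higher and 7.32% lower). The 2 that rose were Slit3, a secreted repellent of the slit family, and Ntn4, a laminin-related netrin of basement membranes. Without adjustment, 18 had a p under 0.05 with a higher and 3 with a lower level in rd10, 34.4% of the 61 against 30.1% of all genes tested. DESeq2 called 8 higher and 2 lower (17.5% of all genes called), and limma voom 3 higher and none lower (14.5% of all genes called). The median log2 fold change of the 61 was 0.30, against -0.04 for all genes tested, and 48 of the 61 had positive values (46.2% of all genes tested did). With scaling factors set on 36 marker genes of bipolar cells, amacrine cells and ganglion cells (inner neuron scaling) the median of the 61 was 0.06 and that of all genes -0.27, so most of the median's distance from 0 depended on the scaling while its distance from all genes did not. In 17 of the 61 each rd10 library lay above each WT library, and in 3 below it (17.1% and 18.6% of all genes tested, or 35.7% in both directions). Leaving out 1 library at a time gave 12 higher without WT-1 (22.8% of all genes called), 2 without WT-4 (6.74%), 4 higher and 1 lower without WT-23 (13.3%), 2 higher without Rd10-3 (6.26%), 2 higher and 1 lower without Rd10-4 (8.66%) and 2 higher without Rd10-5 (9.33%). In a test against a fold of 1.2, Slit3 and Ntn4 again made up the count of 2 (9.24% of all genes called).

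**Figure D1:**
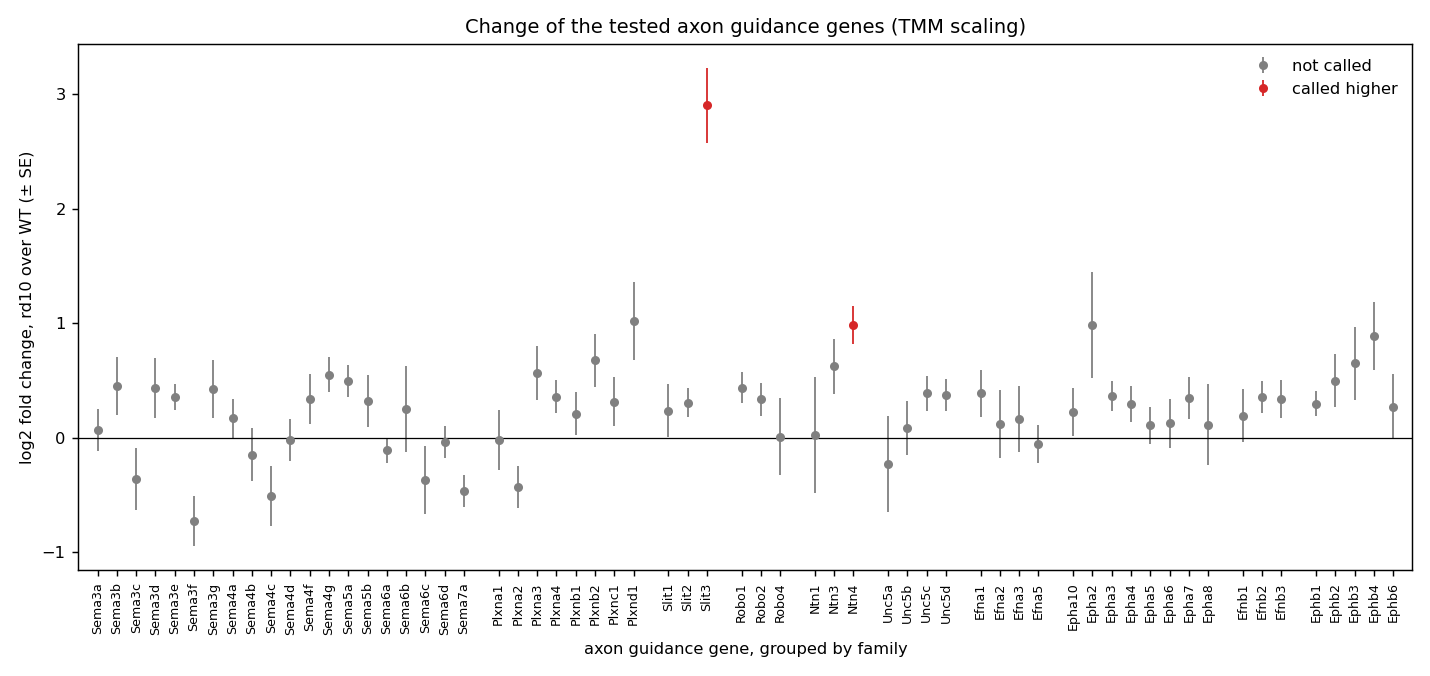
Log2 fold change of rd10 over WT for the 61 tested axon guidance genes, grouped by family, with TMM scaling; bars are standard errors from the edgeR fit on 3 libraries per group. Slit3 (2.90) and Ntn4 (0.98), in red, are the genes that passed the adjusted threshold, and all 13 Eph receptors lie above 0.

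Slit3 had the largest change. WT-1, WT-4 and WT-23 held 4, 6 and 7 of its reads, and Rd10-3, Rd10-4 and Rd10-5 held 40, 46 and 32. The groups did not overlap, although each library gave few reads. The level went from 0.407 ± 0.0745 to 3.14 ± 0.745 CPM (SD, n = 3 libraries per group). This is 7.49-fold, or 2.90 ± 0.33 (SE) on the log2 scale, with an adjusted p of 0.00123 by edgeR. It stayed past the threshold in all 6 fits that left out 1 library, with log2 fold changes from 2.72 to 3.06. Slit3 lies on chromosome 11 from 35121224 to 35708507 (GRCm38, plus strand, GENCODE M21) and is a protein coding gene. Even in rd10 it was a rare transcript. Per kilobase of merged exons its level was 0.067 CPM in WT and 0.518 CPM in rd10, places 63 and 61 of the 66 genes.

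Its paralogs Slit1 and Slit2, the slits best known from ganglion cell axon guidance, did not pass. Slit2 had 114, 130 and 149 CPM in WT and 169, 153 and 163 CPM in rd10, with a log2 fold change of 0.31 ± 0.13 (edgeR adjusted p = 0.147), and the groups did not overlap. Slit1 ranged from 19.3 to 31.7 CPM in WT and from 23.2 to 36.2 CPM in rd10, with overlapping groups (0.23 ± 0.23). The ratio of Slit3 to Slit2 within a library is free of any scaling factor. Its log2 value, with 0.5 added to each count, averaged -8.21 ± 0.061 over the WT and -5.69 ± 0.39 over the rd10 libraries (SD, n = 3 each), a difference of 2.52 ± 0.23 (SE). The exact two-sided permutation p was 0.1, the smallest that 3 against 3 allows, or 0.16 adjusted over the 8 gene ratios compared, which were chosen after their values were seen. Not all of the 8 separated the groups. Ntn4 to Unc5c (0.60 ± 0.32), Plxnd1 to Sema3e (0.67 ± 0.50) and Sema5a to Sema5b (0.16 ± 0.39) overlapped. Their exact permutation p-values were 0.2, 0.3 and 0.5. Sema7a to Plxnc1 did not overlap (-0.82 ± 0.35, exact permutation p = 0.1). Transcripts of a pair can differ in GC content, along which libraries of a group also differed, as described below. Slit3 and Slit2 had 56.8% and 45.5%, Plxnd1 and Sema3e 60.8% and 42.0%, and Sema5a and Sema5b 45.9% and 60.2%. The part of GC content in these ratios was not tested.

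Among the Robo receptors, Robo1 had 26.7, 21.7 and 26.0 CPM in WT and 35.5, 34.0 and 31.3 CPM in rd10. All 3 rd10 libraries were higher, but the log2 fold change of 0.44 ± 0.13 missed the threshold (edgeR adjusted p = 0.0682). Robo2, at 124 ± 20 and 156 ± 15 CPM the receptor with the highest level per length of this family, had 0.33 ± 0.15 (adjusted p = 0.170) with overlapping groups. Robo4, an endothelial family member, had 4.36 ± 1.97 CPM in WT and 4.36 ± 0.95 CPM in rd10. Of 10 endothelial markers, Kdr and Vwf rose and Slco1c1 fell. The log2 fold changes of the 10 were positive for 6 and negative for 4, with a median of 0.047. Their summed level was 481 to 532 CPM in WT and 768 to 838 CPM in rd10. The part of this summed level in the values of vascular members such as Plxnd1 and Ephb4 was not tested.

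Ntn4 was the second gene to pass. WT libraries held 196, 212 and 171 of its reads and the rd10 libraries 356, 369 and 329, or 14.1 ± 2.28 and 27.9 ± 3.25 CPM (SD), so that every rd10 library stood well above every WT library. The increase was 1.98-fold (log2 0.98 ± 0.17, SE; n = 3 per group; adjusted p = 0.00697 by edgeR), and it passed in all 6 fits without 1 library (adjusted p from 0.00307 to 0.0367). Ntn4 lies on chromosome 10 from 93640681 to 93747207 (GRCm38, plus strand, GENCODE M21). The classical netrin gene Ntn1 was near the detection limit, at 20, 6 and 11 counts in the WT libraries against 9, 14 and 12. Ntn3 had 0.62 ± 0.24 (adjusted p = 0.124), from 2.99 ± 0.77 to 4.59 ± 0.15 CPM, without overlap.

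The netrin receptors Unc5c and Unc5d had log2 fold changes of 0.39 ± 0.15 and 0.37 ± 0.14 (edgeR adjusted p = 0.126 and 0.119). Unc5d, which also binds the adhesion proteins of the Flrt family, had 33.5, 38.0 and 41.9 CPM in WT and 51.7, 42.8 and 52.4 CPM in rd10, and the groups were separate by a small gap. Unc5a and Unc5b overlapped between groups (-0.23 ± 0.42 and 0.09 ± 0.24). Dcc, the attractive netrin receptor, which the symbol rule does not take, had 27.6 ± 3.7 and 26.4 ± 3.6 CPM.

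The 20 semaphorins split, with 11 positive and 9 negative log2 fold changes (9 positive under inner neuron scaling), and none passed the edgeR test. At an unadjusted edgeR p under 0.05, 3 were higher and 2 lower, or 25% against 30.1% of all genes tested. DESeq2 called 2 higher and 2 lower, where it called 17.5% of all genes. Sema3f, a secreted class 3 semaphorin that repels axons and vessels through neuropilin-2, had 117, 82.5 and 72.5 CPM in WT and 46.7, 68.5 and 49.2 CPM in rd10. All rd10 libraries were lower, with WT-23 and Rd10-4 close to each other. The log2 fold change of -0.73 ± 0.22 (SE, n = 3 per group) had an edgeR adjusted p of 0.0619. Sema3f passed with DESeq2 (adjusted p = 0.0165) and with inner neuron scaling (0.00884), under which 24.2% of all calls were higher. It missed with limma voom (0.0608), upper quartile scaling (0.0847) and library sizes alone (0.129). Sema7a, a membrane-anchored semaphorin that binds plexin C1 and integrins, had 86.9, 72.7 and 69.3 CPM in WT and 48.7, 62.1 and 54.9 CPM in rd10. Its groups were separate too, with -0.47 ± 0.14 (edgeR adjusted p = 0.0648). This gene passed with DESeq2 (adjusted p = 0.0422) and inner neuron scaling (0.0147). It missed with limma voom (0.064), upper quartile scaling (0.114) and library sizes alone (0.278). Sema7a and Sema3f had the highest levels per length of all 66 genes in WT, with 23.1 and 17.5 CPM per kilobase of merged exons, and in rd10 they had 16.8 and 10.5, places 1 and 4. This order depends on the length used and does not hold for the authors' FPKM, as described at the end.

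On the other side, Sema5a and Sema4g came within reach of the threshold with higher levels. Sema5a, a transmembrane semaphorin that with Sema5b keeps inner retinal neurites within the inner plexiform layer, had 104, 116 and 133 CPM in WT and 169, 144 and 185 CPM in rd10 (log2 fold change 0.50 ± 0.14, edgeR adjusted p = 0.0511). Sema4g had 45.3, 37.1 and 34.0 CPM in WT and 53.6, 65.1 and 51.6 CPM in rd10 (0.55 ± 0.15, adjusted p = 0.0505). Neither pair of groups overlapped. DESeq2 called both (adjusted p = 0.0186 for Sema5a and 0.0129 for Sema4g), as did upper quartile scaling (0.0251 and 0.0261). Limma voom called Sema4g (adjusted p = 0.0469) but not Sema5a (0.0509). With inner neuron scaling neither passed (edgeR adjusted p = 0.398 for Sema5a and 0.149 for Sema4g). Sema3e, the class 3 semaphorin that binds plexin D1 without a neuropilin, had 40.2 ± 3.0 and 51.4 ± 0.92 CPM (0.36 ± 0.11, adjusted p = 0.0749), again without overlap. The log2 ratio of Sema3f to Sema3e within libraries was 1.64, 1.07 and 0.74 in WT and -0.17, 0.44 and -0.06 in rd10. Every WT library had more reads of Sema3f than of Sema3e, and 2 of 3 rd10 libraries had fewer. The difference was -1.08 ± 0.32 (SE; exact permutation p = 0.1, the smallest possible with n = 3 per group, 0.16 adjusted over the 8 ratios). Transcripts of Sema3f and Sema3e differ in GC content (58.4% and 42.0%), along which libraries of a group also differed, as described below. The part of GC content in this ratio was not tested.

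The other 15 semaphorins ranged from -0.51 ± 0.26 (Sema4c) to 0.45 ± 0.25 (Sema3b), and all but Sema6a overlapped between groups.

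**Figure D2:**
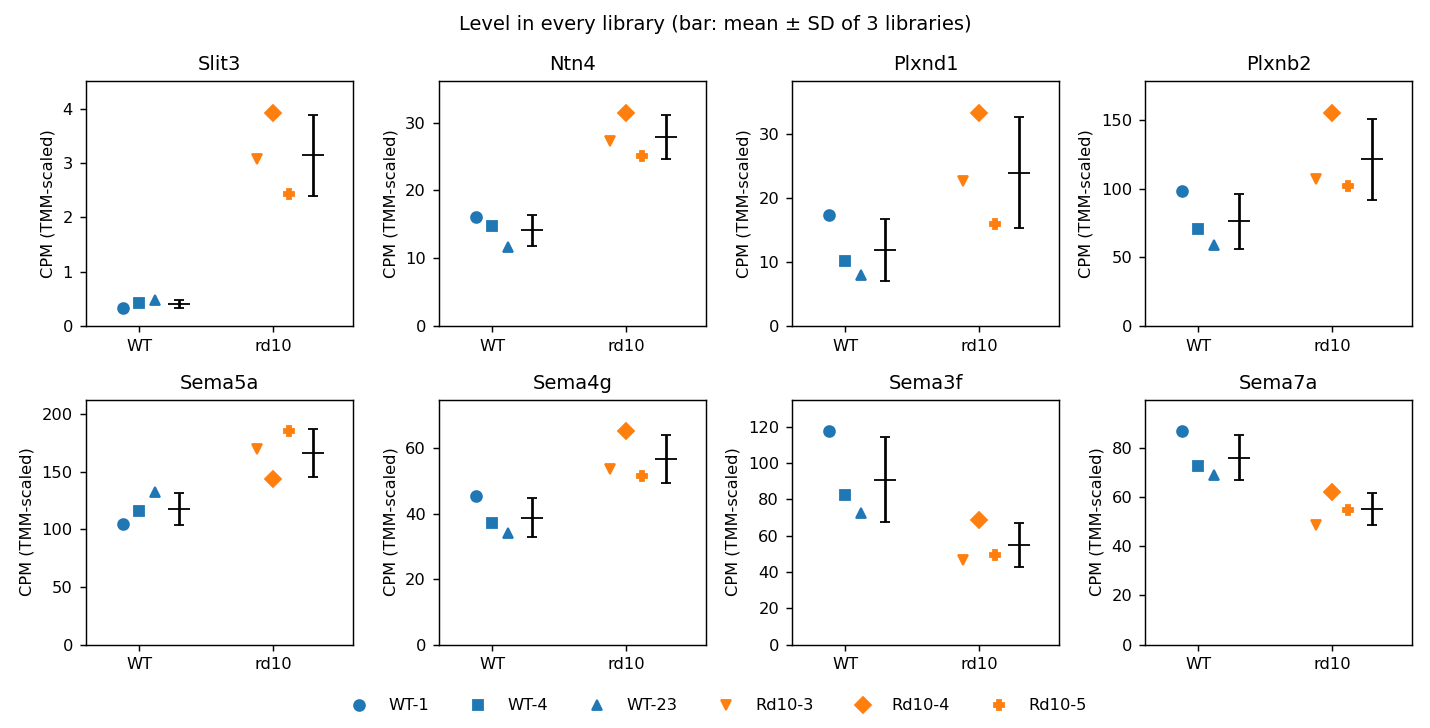
Level in CPM (TMM-scaled counts, axis from 0) in each of the 6 libraries for 8 of the genes, with mean ± SD of the 3 libraries of a group in black. Slit3 and Ntn4 passed the adjusted threshold; WT-1 and Rd10-4 are the highest libraries of their groups for Plxnd1, Plxnb2, Sema4g, Sema3f and Sema7a and the lowest for Sema5a.

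None of the 8 tested plexins passed the edgeR test. At an unadjusted edgeR p under 0.05, 4 were higher and 1 lower, or 62.5% against 30.1% of all genes tested. DESeq2 called 2 higher, where it called 17.5% of all genes. Plxnd1, the receptor of Sema3e and best known from endothelium, had levels of 11.9 ± 4.92 and 24.0 ± 8.74 CPM (SD), from 213, 147 and 118 reads in the WT libraries and 296, 391 and 210 in rd10. The ratio of the means was large (log2 fold change 1.02 ± 0.34), but on the CPM scale Rd10-5 lay below WT-1 and the adjusted p was 0.0881. Plxnb2, a receptor of class 4 semaphorins that many tissues express, had 98.8, 70.8 and 59.1 CPM in WT and 107, 155 and 102 CPM in rd10. These groups were separate by the small gap between WT-1 and Rd10-5 (0.67 ± 0.23, adjusted p = 0.0895). The log2 ratio of Plxnb2 to its paralog Plxnb1 within libraries was 0.037 ± 0.26 in WT and 0.511 ± 0.066 in rd10, without overlap (difference 0.47 ± 0.15, exact permutation p = 0.1, n = 3 per group).

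Plxna2 and Plxna4, receptors of the transmembrane semaphorin Sema6a that set sublayers of the inner plexiform layer, had log2 fold changes of opposite sign. Plxna2 had 118, 104 and 153 CPM in WT and 80.7, 86.1 and 112 CPM in rd10 (-0.43 ± 0.18, edgeR adjusted p = 0.156), with Rd10-5 above WT-4. Plxna4 had 25.8, 24.0 and 31.2 CPM in WT and 34.0, 32.2 and 37.7 CPM in rd10 (0.36 ± 0.14, adjusted p = 0.140). The ratio of these receptors separated the groups clearly. On the log2 scale it was 2.19, 2.12 and 2.29 in WT and 1.25, 1.42 and 1.57 in rd10. The difference was -0.79 ± 0.11 (SE; exact permutation p = 0.1, the smallest possible with n = 3 per group, 0.16 adjusted over the 8 ratios). Sema6a itself had 41.0 ± 1.1 CPM in WT and 38.0 ± 1.5 CPM in rd10 (-0.11 ± 0.11, adjusted p = 0.548).

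All 13 tested Eph receptors had positive log2 fold changes with TMM scaling, and none passed the edgeR test. At an unadjusted edgeR p under 0.05, 3 were higher and none lower. That was 12.5% of the EphA and 40% of the EphB receptors, against 30.1% of all genes tested. DESeq2 called 1 higher, where it called 17.5% of all genes. With inner neuron scaling 5 of the 8 EphA and all 5 EphB values stayed positive. Their median was 0.50 for EphB under TMM and 0.28 under inner neuron scaling; for EphA it was 0.26 and 0.02. Ephb4, a receptor known from veins, had 6.13, 3.76 and 2.98 CPM in WT and 8.14, 9.37 and 6.24 CPM in rd10, a log2 fold change of 0.89 ± 0.30 (edgeR adjusted p = 0.0841) with the nearest libraries almost level. Its main ligand Efnb2, an arterial marker that retinal neurons also express, went from 36.1 ± 4.7 to 46.2 ± 2.8 CPM (0.35 ± 0.14, adjusted p = 0.124).

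Ephb1 and Ephb2 guide ganglion cell axons, Ephb1 at the optic chiasm. Ephb1 varied little within a group, with 39.4, 36.5 and 38.9 CPM in WT and 47.4, 47.1 and 46.6 CPM in rd10 (0.30 ± 0.11, adjusted p = 0.108). Ephb2 varied more and its groups overlapped (0.50 ± 0.23). Among the EphA receptors of topographic mapping, Epha3 was separate between groups, with 12.1 ± 0.32 and 15.6 ± 0.24 CPM (0.36 ± 0.13, adjusted p = 0.104), while Epha4, Epha5 and Epha7, overlapped. Epha2 had the largest EphA value, at low levels (2.29 ± 1.22 and 4.53 ± 2.28 CPM, 0.99 ± 0.46, adjusted p = 0.196). The 4 tested ephrin-A ligands lay between -0.05 and 0.39 and the 3 ephrin-B ligands between 0.19 and 0.35. The ephrin-A, semaphorin and Unc5 medians were 0.14, 0.12 and 0.23 under TMM, and -0.09, -0.12 and -0.0015 under inner neuron scaling, so their direction turned.

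**Figure D3:**
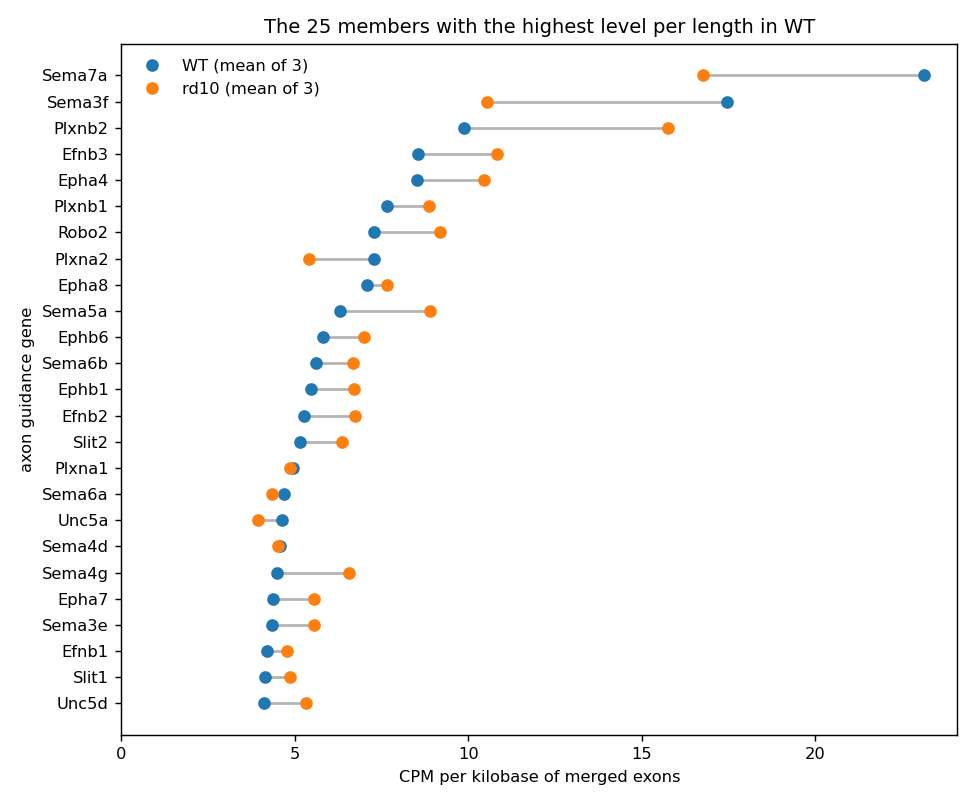
Mean level of the 25 axon guidance genes with the highest level per length in WT, in CPM per kilobase of merged exons (axis from 0), in WT (blue) and rd10 (orange, n = 3 libraries each). Sema7a and Sema3f lead in WT with 23.1 and 17.5, and in rd10 Plxnb2 (15.8) is second to Sema7a (16.8). The order depends on the length used and differs for the authors' FPKM.

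Summed over a family, levels did not overlap between groups for the slits (155.7 ± 11.4 CPM in WT and 193.7 ± 1.84 CPM in rd10), the Robo receptors (153 ± 19.4 and 194 ± 13.7), the netrins (18.1 ± 2.995 and 33.6 ± 3.46), the Unc5 receptors (129 ± 3.98 and 155 ± 4.54), the EphA receptors (239 ± 13.6 and 283 ± 3.03) and the ephrin-Bs (77.8 ± 9.86 and 97.1 ± 5.67; all SD, n = 3 libraries per group). Semaphorins, plexins, ephrin-As and EphB receptors overlapped. These sums were formed with TMM scaling only. Small gaps parted the highest WT from the lowest rd10 library for Robo receptors (175.5 and 178.4 CPM) and ephrin-Bs (89.0 and 90.8 CPM). Most of the slit sum was Slit2 (131 CPM in WT and 162 CPM in rd10). Likewise, Ntn4 made up most of the netrin sum (14.1 and 27.9 CPM). Robo2, whose groups overlapped, made up most of the Robo sum (124 and 156 CPM). Under inner neuron scaling the median log2 fold changes were 0.058 for slits and 0.086 for Robo receptors. All 66 genes together had 1911 ± 128 CPM in WT and 2215 ± 117 CPM in rd10 (SD, n = 3 per group), without overlap. Before TMM scaling they took between 0.165% and 0.184% of the counts of a WT library and between 0.234% and 0.252% of those of an rd10 library. With TMM scaling, summed amacrine, ganglion and bipolar cell markers did not overlap either. Their means were 1885, 1775 and 2136 CPM in WT and 2304, 2090 and 2559 CPM in rd10. Horizontal cell markers were lower in rd10 (984 and 851 CPM). The part of these cells in the sum of the 66 genes was not tested.

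Within a group, some pairs of libraries differed along the base composition of the transcripts. Across the 61 genes, the log2 ratio of WT-1 to WT-23, libraries of the same genotype, had a Pearson correlation of 0.85 with transcript GC content, and that of Rd10-4 to Rd10-5 one of 0.76. This is a correlation across genes, which share both libraries and are not independent replicates; over 13302 genes tested the values were 0.70 and 0.55. For the other pairs of libraries, the 61 genes had 0.77 (WT-1 to WT-4), 0.43 (WT-4 to WT-23), 0.79 (Rd10-4 to Rd10-3) and 0.053 (Rd10-3 to Rd10-5). The pairs with WT-1 or Rd10-4 thus had the higher values, and Rd10-3 and Rd10-5 hardly differed along GC content. Of the 31 genes with a GC content of 56.2% or more, 30 were higher in WT-1 than in WT-23, and of the 30 below it 11 were. GC-rich Unc5a (62.7% GC) thus had 30.7 CPM in WT-1 and 12.4 CPM in WT-23, and GC-poor Epha7 (41.7% GC) 32.5 and 51.6 CPM.

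When a smooth trend with GC content was removed from each library, 26 of the 61 passed, 22 higher and 4 lower, or 42.6% against 32.7% of all genes tested. The median standard error of the 61 fell from 0.22 to 0.13 on the log2 scale, as shown by the plot of values before and after removal. Slit3 and Ntn4 passed again (2.81 ± 0.34 and 0.99 ± 0.13). Sema3f (-0.80 ± 0.085, edgeR adjusted p = 7.1e-05), Sema7a (-0.55 ± 0.12), Sema4c (-0.56 ± 0.16) and Sema6c (-0.40 ± 0.12) were the 4 that fell, all semaphorins. Among the receptors that rose with this correction were Plxnb2 (0.61 ± 0.083, adjusted p = 0.000327), Plxnd1 (0.96 ± 0.14), Plxna3, Robo1, Robo2 (0.45 ± 0.071), Unc5c, Unc5d, Epha3, Epha4, Epha7 and Ephb1 to Ephb4. Ligands that rose were Slit2 (0.38 ± 0.074), Sema5a (0.56 ± 0.081), Sema3e, Sema4g, Sema3b and Efnb2. The correction also removes any true difference between genotypes that follows GC content, and which of the counts is nearer the biology was not tested.

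**Figure D4:**
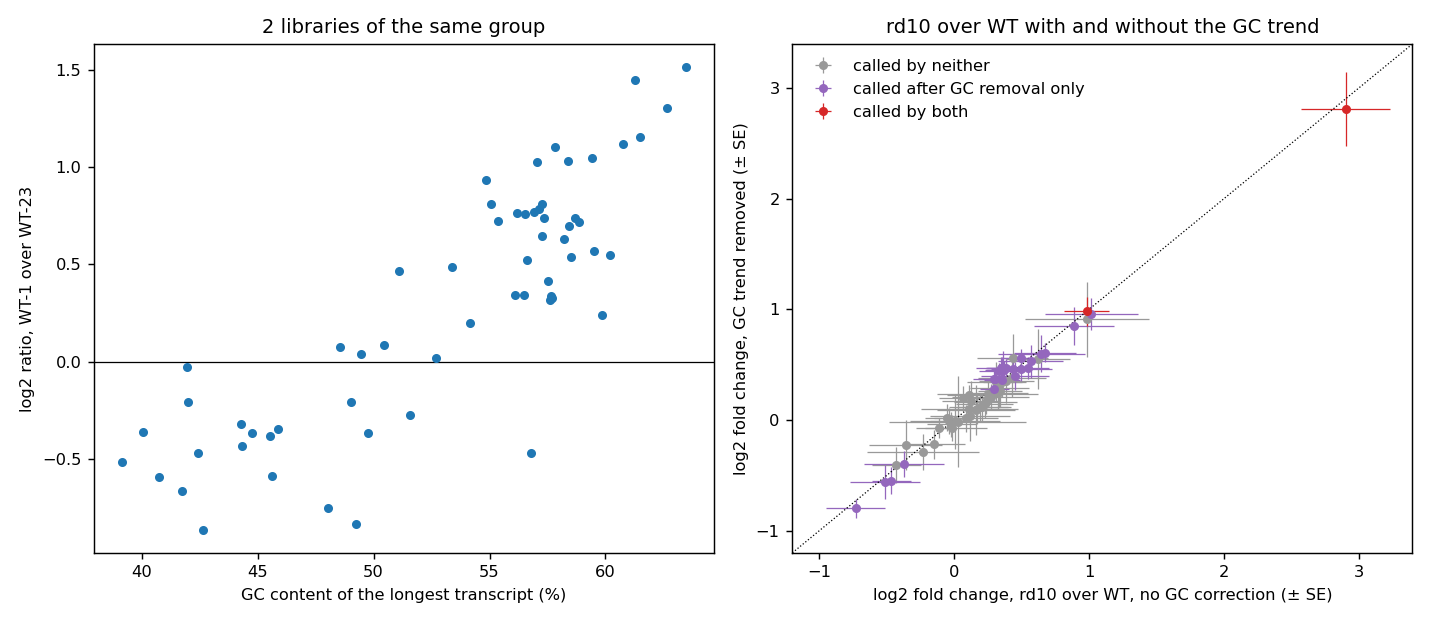
Left, log2 ratio of WT-1 to WT-23 against transcript GC content (%) for the 61 tested genes, with a Pearson correlation of 0.85. Right, log2 fold change of rd10 over WT before (x axis) and after (y axis) removal of the GC trend, with standard errors (n = 3 libraries per group) and the line of equality; 24 genes, in purple, passed the threshold only after removal, and Slit3 and Ntn4, in red, in both fits.

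Some partners of these families lie outside the symbol rule. Of 16 other receptors and coreceptors, 5 rose and none fell, where 14.4% of all genes passed. At an unadjusted p under 0.05 there were 6 higher and none lower, 37.5% against 30.1% of all genes. Chl1, an adhesion molecule of the L1 family that joins neuropilin-1 in semaphorin signalling, had between 197 and 343 counts per WT library and between 432 and 573 per rd10 library, without overlap. Its log2 fold change was 1.09 ± 0.17 (edgeR adjusted p = 0.00469), and it passed in all 6 fits without 1 library. Nrcam, a relative of Chl1, rose by 0.59 ± 0.12, the netrin receptor gene Neo1 by 0.49 ± 0.12, the coreceptor gene Nrp1 by 0.59 ± 0.15 and the axonal adhesion gene Cntn2 by 0.47 ± 0.13. Each of these 4 lost the call when at least 3 of the 6 libraries were left out in turn (adjusted p up to 0.151). Nrp2, the coreceptor of Sema3f, had 24.0 ± 3.4 and 23.8 ± 0.33 CPM.

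Among 13 other ligands and cues, Reln rose and Ntng2 fell, where 14.4% of all genes passed. Without adjustment, 3 were higher and 1 lower at an edgeR p under 0.05, 30.8% against 30.1% of all genes. Reln, which encodes the layering protein reelin, went from 364 ± 51 to 643 ± 26 CPM (log2 fold change 0.82 ± 0.13, edgeR adjusted p = 0.00488), passed without each library in turn and missed the threshold with inner neuron scaling (0.58, adjusted p = 0.0595). Ntng2, a membrane-anchored netrin-G that does not bind Dcc, had between 522 and 1035 counts per WT library and between 263 and 373 per rd10 library. The groups were separate, with -1.22 ± 0.32 (edgeR adjusted p = 0.041; 0.0504 with limma voom), and 3 of the 6 fits without 1 library kept the call. None of 8 tested genes of the Nogo receptor system passed (none at an unadjusted p under 0.05). Of 54 cytoplasmic effectors 3 rose and 2 fell, where 14.4% of all genes passed. At an unadjusted p under 0.05 there were 11 higher and 4 lower, 27.8% against 30.1% of all genes. Dock1, a Rac activator, rose by 0.58 ± 0.12, the collapsin response mediator gene Dpysl3 fell by 0.62 ± 0.15 and Limk2, a cofilin kinase gene, fell by 0.43 ± 0.11. Gap43, a growth cone protein gene, and Farp1 also rose (0.41 ± 0.11 and 0.58 ± 0.16). Of the 6 fits without 1 library, Dock1 and Dpysl3 kept the call in 3, Limk2 in 2 and Gap43 and Farp1 in 1 (edgeR adjusted p up to 0.181).

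Promoter windows were read for 57 of the 66 genes (73 windows of 250 bases before the RefSeq start, GRCm38.p6) and searched on both strands for GGAATG, the core of the TEAD motif, TAATCC (CRX, a photoreceptor factor), TTCNNNGAA (STAT), TGANTCA (AP-1) and GGGCGG (SP and KLF factors). GGGCGG was in 69.9% of the windows, against 56.6% of windows of all genes tested and 32.7% of all windows in the reference table. The TEAD core was in 8 of the 73 windows, or 10.96%, against 10.88% for genes tested. TAATCC was in 2 windows (2.74% against 5.28% for genes tested), TTCNNNGAA in 2 (2.74% against 5.87%) and TGANTCA in 3 (4.11% against 4.39%). Windows are printed for Ntn4, which rose, for Sema7a, the gene with the highest level per length of merged exons, and for Plxnd1, whose window holds a TEAD core, with matches in capitals. The Ntn4 window is chr10:93640799-93641048, inside the longer gene that GENCODE M21 annotates and with GGGCGG matches in either orientation as the only ones, 2 of them overlapping. The Sema7a window is chr9:57939862-57940111 (plus strand for both genes). The Plxnd1 window is chr6:115995006-115995255 (minus strand), where CATTCC begins 173 bases before the start. A match is a description of these letters and not a site.
Ntn4: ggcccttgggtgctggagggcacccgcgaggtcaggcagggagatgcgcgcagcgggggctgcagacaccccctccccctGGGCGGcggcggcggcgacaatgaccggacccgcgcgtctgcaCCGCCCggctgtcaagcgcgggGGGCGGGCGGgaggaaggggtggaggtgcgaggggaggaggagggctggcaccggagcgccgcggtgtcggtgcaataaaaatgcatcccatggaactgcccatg
Sema7a: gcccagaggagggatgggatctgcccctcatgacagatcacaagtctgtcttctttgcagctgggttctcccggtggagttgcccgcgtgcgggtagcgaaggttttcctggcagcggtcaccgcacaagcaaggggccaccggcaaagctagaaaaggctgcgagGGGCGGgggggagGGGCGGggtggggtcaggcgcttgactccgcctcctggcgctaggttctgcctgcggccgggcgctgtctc
Plxnd1: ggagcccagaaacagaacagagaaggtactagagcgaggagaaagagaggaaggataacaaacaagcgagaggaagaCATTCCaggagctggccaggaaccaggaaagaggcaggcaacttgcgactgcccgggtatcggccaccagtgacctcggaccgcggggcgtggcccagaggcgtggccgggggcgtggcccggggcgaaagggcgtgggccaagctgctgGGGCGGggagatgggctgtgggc

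The authors' deposited table holds 3427 genes, all with a p under 0.05, a fold above 1.2 and an FPKM of at least 2 in one group or the other. Of the 66 genes, the authors' deposited table lists 18, 15 higher and 3 lower in rd10, beside its 3427 of the 24062 genes counted. In the authors' deposited table their p-values run from 1.11e-06 for Ntn4 to 0.0491 for Ephb2, and the log2 fold changes there differ by at most 0.0038 from those given here. Only Ntn4 of the 18 passed the adjusted test above, whereas the header of the authors' p-values names no adjustment. At an unadjusted edgeR p under 0.05, 21 of the 61 genes passed here, 34.4% against 30.1% of all genes tested. Slit3 is not in the authors' deposited table, whose FPKM minimum applies whatever the p, so its absence does not show the outcome of the authors' test. In the authors' deposited table Robo1 has 994 FPKM in WT and Slit2 312.4, far above the other 16 genes. Set beside their TMM-scaled CPM, these FPKM imply gene lengths of 24.99 and 419 bases, against merged exons of 16511 and 25433 bases in GENCODE M21. For the other 16 genes the implied length lay between 1194 and 11260 bases. That was 20.8% to 151% of their merged exon length (median 52.75%), so the 2 lengths differed for these genes too. The levels per length given above were therefore computed from the counts, and their order depends on the length used. By the authors' FPKM, Plxnb2 (40.0) and Sema5a (23.5) stood above Sema7a (18.3) and Sema3f (13.9) in WT. In rd10 the authors' FPKM were 63.7 for Plxnb2 and 13.2 for Sema7a.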

How the data were processed

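RNA from whole retinas was made into strand-specific libraries with a modified TruSeq protocol, per the labels' protocols. The submitters' processing notes name TopHat2 2.1.0, HTSeq, edgeR and the build mm10. Their roles and order, the annotation and the strand setting of the counting are not stated in the sources used. Raw counts per gene and library were deposited by the authors. A table that the authors also deposited gives, per the file headers, an FPKM value for either group, the log2 fold change and the p-value of each gene. It served only for the comparison at the end, and a second, smaller table was not used. Column numbers differ from the replicate numbers of the titles, so columns were assigned to groups by name.

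Genes were filtered with filterByExpr (13905 left) and fitted in R 4.3.3 with edgeR 4.0.16 (TMM, robust quasi-likelihood, genotype as the only term, threshold 0.05). Errors of fold changes are standard errors of that fit. Alternatives used DESeq2 1.42.0, limma 3.58.1, other scaling factors, filters and thresholds, each library left out, and a lowess trend (span 0.3) of log2 CPM with the GC content of the longest GENCODE M21 transcript removed from each library. Exact permutation tests used scipy 1.17.1. The fit was tested on simulated data. Within a group, libraries were further apart than sampling noise allows (chi-square per degree of freedom from 7.36 to 57.8). Fewer counts give less precision: Slit3 had under 50 counts in each library.

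The members, lists and alternatives were chosen with earlier results of these data known. The genes named by rule were those that passed, the 2 most abundant of each family and up to 3 called genes per list of partners; all others were named after their values were seen. Exons of genes on the opposite strand overlap up to 14.1% of the exon length of a tested member (Efna3), and if counting ignored strand such reads cannot be told apart.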

Additional observations from a re-analysis of the deposited data

How the results depend on the processing

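The rises of Slit3 and Ntn4 passed in all 17 alternative fits. The number of genes that passed depended on the fit. It was 2 higher and 0 lower in the fit reported, 8 and 2 with DESeq2, 7 higher under upper quartile scaling (15.5% of all genes called), 21 higher when only library sizes were used (21.9%), 2 higher and 2 lower under inner neuron scaling (17.6%), 4 higher with no filter (10.9%), and 22 and 4 with the GC trend removed. Leaving out 1 library each gave between 2 and 12 higher genes and between 0 and 1 lower. The 12 came without WT-1, 4 and 1 without WT-23, and 2 and 1 without Rd10-4, the lower gene being Sema3f. The median log2 fold change of the genes, 0.30 as reported, was 0.54 for library sizes only and 0.057 under inner neuron scaling, and between 0.23 and 0.35 without 1 library. Of all calls, 49.3% were higher with TMM, 63.3% under upper quartile scaling, 81.2% for library sizes only and 24.2% under inner neuron scaling.

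Of the 61 genes, 20 changed sign in at least 1 alternative, 12 of them under inner neuron scaling. These 20 had log2 fold changes of at most 0.25 in size as reported and passed in no alternative. Efna5 (-0.054 as reported) had 0.041 under upper quartile scaling, 0.18 for library sizes only and 0.022 with the GC trend removed, and lay between -0.139 and 0.0916 without 1 library. Efna3 had -0.063, Epha5 -0.13 and Plxnb1 -0.019 under inner neuron scaling. Unc5a (-0.23 as reported) had 0.27 without WT-1. Without 1 library, Efna3 lay between -0.0906 and 0.379 and Epha5 between -0.0133 and 0.239. Causes were not tested. No paired analysis was possible because the column names share fewer than 2 replicate numbers between the groups. The 61 genes all have a transcript GC content, as do 13302 of 13905 genes tested.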
